A study of Mus musculus with 9 samples.

Results

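Sox7, Sox17 and Sox18 are the 3 transcription factor genes of the SoxF group, and they were followed here through 3 cell populations sorted from the back skin of newborn mice. All 3 genes were chosen by name, and all were measured, among 18193 genes with a probe set of their own. They are covered by 5 probe sets: a pair for Sox7, a pair for Sox17 and a single one for Sox18. Each gene is represented by its brightest probe set, judged on the mean of all 9 arrays.

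Each of 3 mice (numbers 2, 4 and 5, at postnatal day 2) gave 1 array for each of 3 flow cytometry gates, with a yield of about 50000 cells per population. Gate R3 held GFP+CD133+ cells, labelled as dermal papilla cells of guard, awl and auchene hairs. Gate R2 held GFP-CD133+ cells, labelled as papilla cells of zigzag hairs. Gate R1 held GFP-CD133- cells, the dermal cells left after both papilla populations, and served as the reference for each. Strain and genotype are not given in the labels. GFP is known from work on such mice as a reporter of Sox2, and CD133 is the protein of Prom1. The labels name these 2 markers for the gates, and a gate can hold any skin cell with that pattern.

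SoxF proteins bind DNA through an HMG box and act in the endothelium of blood and lymphatic vessels, where they can stand in for one another in part. Sox17 is best known from arteries, Sox7 from early vessel formation, and Sox18 from the start of lymphatic fate, where it switches on Prox1. Sox18 is also known in skin: the ragged mouse mutants carry changes in this gene and have vessel defects and a sparse coat, and the gene has been described in the mesenchyme of growing hair follicles. The dermal papilla is the mesenchymal cluster at the base of the follicle that instructs hair growth.

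Values are log2 expression values, in which 1 unit is a doubling. Array medians ran from 6.13 to 6.20. As a guide to background, 44 probe sets of olfactory receptor genes were used, whose 95th percentile lay between 5.14 and 5.46 on the 9 arrays. Across probe sets, arrays correlated at 0.977 to 0.985 within a gate and at 0.951 to 0.974 between gates. The genes behind the gates followed the sort in part. Sox2 stood at 10.66 ± 0.12 in R3, 7.08 ± 0.61 in R2 and 4.19 ± 0.34 in R1. Prom1 stood at 10.32 ± 0.19, 11.85 ± 0.04 and 7.43 ± 0.36 in the same order (SD, n = 3 mice). Sox2 was thus highest in the GFP+ gate and Prom1 lowest in the CD133- gate. Gates sorted alike still differed. From R1 to R2, both GFP-, Sox2 rose by 2.90 in log2 (limma, adjusted p = 0.000192). From R2 to R3, both CD133+, the log2 change of Prom1 was -1.54 (limma, adjusted p = 0.00112). The cause was not tested.

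All 3 SoxF genes were highest in R2, the GFP-CD133+ gate: every R2 array lay above every R3 and R1 array of the gene. Of all genes, 12.8% had every R3 array under every R2 array, and 15.4% every R2 array above every R1 array. The 3 genes differed in what came next. Sox18 averaged higher in R3 than in R1, while Sox7 and Sox17 averaged lower in R3 than in R1. In the main limma fit of all arrays, which has no block for the mouse, none of these 3 differences passed the threshold. With the mouse as a block, that of Sox18 did.

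Sox18 lay well above the background guide in every gate. In mice 2, 4 and 5 it read 9.28, 9.12 and 8.43 in R3, 10.65, 10.77 and 10.69 in R2, and 7.81, 8.61 and 7.95 in R1. The R2 arrays lay close together and above every other array. The R3 arrays overlapped those of R1, because the lowest R3 array (mouse 5) was under the highest R1 array (mouse 4).

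Sox7 read 6.18, 5.31 and 5.79 in R3, 8.44, 8.16 and 8.39 in R2, and 6.02, 6.44 and 6.41 in R1, in the same mice. Its R3 and R1 arrays overlapped as well. The R3 level of mouse 4 fell inside the range of the background guide, and the other 2 R3 arrays were less than 1 unit above its upper end.

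Sox17 read 4.42, 6.12 and 6.39 in R3, 9.52, 9.23 and 9.26 in R2, and 6.89, 6.69 and 6.74 in R1. The 3 gates did not overlap for this gene; 18.9% of all genes had every R3 array under every R1 array. The R3 array of mouse 2 lay under the background guide and well below the other R3 arrays, which gives Sox17 the widest spread of the 3 genes in R3 (SD 1.07, against 0.16 in R2 and 0.10 in R1).

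**Figure D1:**
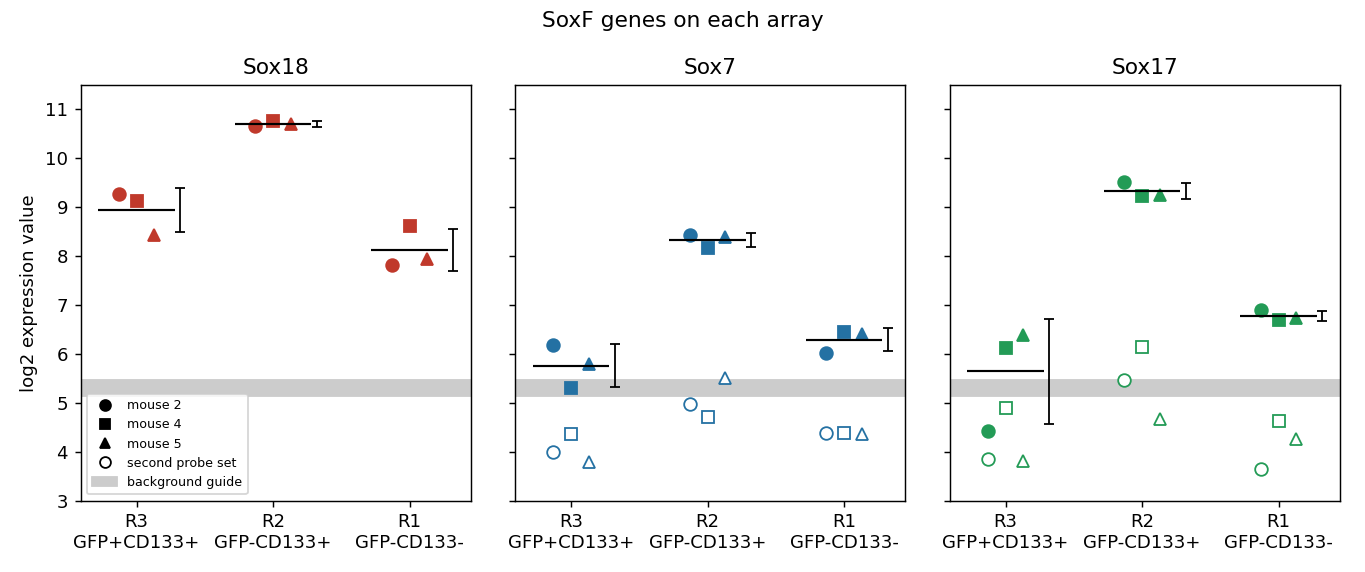
Log2 expression values of Sox18, Sox7 and Sox17 (vertical axis) on each array by gate (horizontal axis). Filled symbols are the main probe set by mouse, open symbols the second probe set, bars the gate mean with its SD to the right (n = 3), and the grey band the background guide, 5.14 to 5.46; every filled R2 symbol lies above all filled R3 and R1 symbols of its gene.

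R3 set against R2 compares the gate labelled as papilla cells of guard, awl and auchene hairs with the gate labelled as papilla cells of zigzag hairs. All 3 SoxF genes fell in R3, in a comparison in which limma called 3.06% of all genes lower. The log2 change of Sox17 was -3.69 with a standard error of 0.42, or 12.9-fold (adjusted p = 0.000899). That of Sox7 was -2.57 with a standard error of 0.22, or 5.95-fold (adjusted p = 0.000156). That of Sox18 was -1.76 with a standard error of 0.25, or 3.39-fold (adjusted p = 0.00362).

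Each gene was lower in R3 in 3 of 3 mice. Sox17 differed by -5.11, -3.11 and -2.86 in mice 2, 4 and 5, Sox7 by -2.26, -2.85 and -2.61, and Sox18 by -1.37, -1.64 and -2.26. In all 3 mice, then, Sox18 had the smallest fall and Sox17 the largest. Without the low R3 array of mouse 2 the Sox17 change was -3.08 (adjusted p = 4.28e-05). The R3 levels of Sox7 and Sox17 lay under, in or within 1 unit of the background guide, and both folds therefore have a dim side. These are bulk samples, in which fewer cells of a type and less RNA per cell cannot be told apart.

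R2 set against R1 compares the GFP-CD133+ gate, labelled as papilla cells, with the remaining dermis. All 3 genes rose in R2, where limma called 6.89% of all genes higher. Sox18 was 5.99-fold higher (log2 change 2.58, standard error 0.25, adjusted p = 0.000193), Sox17 5.93-fold (2.57, standard error 0.42, adjusted p = 0.00351) and Sox7 4.11-fold (2.04, standard error 0.22, adjusted p = 0.000304). The rises within mice ran from 2.16 to 2.84 for Sox18, from 2.52 to 2.63 for Sox17 and from 1.72 to 2.42 for Sox7. The confidence intervals of the 3 changes overlapped. The R1 levels of Sox7 lay within 1 unit of the background guide, so its fold has a dim side here too.

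R3 set against R1 makes that comparison for the GFP+CD133+ gate. Here limma called 0 of the 3 genes at an adjusted p under 0.05, although all 3 had an unadjusted p under 0.05; across all genes it called 18.7%. The log2 change of Sox18 was 0.82 (95% interval 0.25 to 1.39, adjusted p = 0.0514), that of Sox7 -0.53 (-1.02 to -0.04, adjusted p = 0.127) and that of Sox17 -1.13 (-2.07 to -0.18, adjusted p = 0.0972). Sox18 was higher in R3 in 3 of 3 mice, by 1.46, 0.51 and 0.49 in mice 2, 4 and 5. Sox17 was lower in 3 of 3, by -2.47, -0.56 and -0.34. Sox7 was lower in mice 4 and 5 (-1.13 and -0.63) and differed by 0.16 in mouse 2.

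With the mouse as a block, which is the paired form of the fit, Sox18 passed the threshold (adjusted p = 0.0432 with a fixed and 0.0434 with a random block). It also passed without R1 replicate 4 (change 1.06, adjusted p = 0.0189) or R3 replicate 5 (1.08, adjusted p = 0.0141). Sox7 passed without R3 replicate 2 (-0.74, adjusted p = 0.0406), and Sox17 without R3 replicate 5 (-1.50, adjusted p = 0.0393); without R3 replicate 2 the Sox17 change was -0.51 (adjusted p = 0.0634). The adjusted p over the alternatives ran from 0.0141 to 0.158 for Sox18, 0.0406 to 0.36 for Sox7 and 0.0393 to 0.267 for Sox17.

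**Figure D2:**
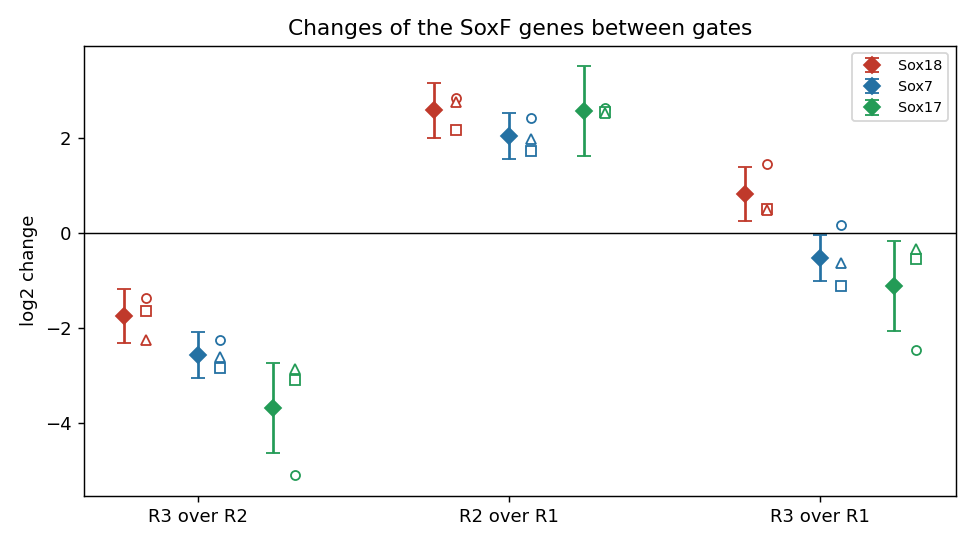
Log2 changes (vertical axis) of Sox18, Sox7 and Sox17 in the 3 comparisons (horizontal axis). Diamonds are the limma estimates with 95% confidence intervals and open symbols the mice (circle 2, square 4, triangle 5); all 3 genes are below 0 for R3 over R2 and above 0 for R2 over R1, while Sox18 (0.82) and the other 2 (-0.53 and -1.13) lie on opposite sides of 0 for R3 over R1.

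Whether Sox18 departs from the other two was tested on the difference between genes within each array, since a constant offset between probe sets drops out of its change from gate to gate. An effect of the dim levels of Sox7 and Sox17 does not drop out, and was not tested. Sox18 minus the mean of Sox7 and Sox17 was 3.98, 3.40 and 2.34 in R3, 1.67, 2.07 and 1.87 in R2, and 1.36, 2.04 and 1.37 in R1 (mice 2, 4 and 5). Every R3 array lay above every R2 and R1 array, and R2 and R1 overlapped. The difference varied between gates by more than the spread between mice (exact permutation test of F over 1680 arrangements of the gate labels, p = 0.0107, adjusted over 4 differences p = 0.0214). By gate means, R3 stood apart from R2 and R1.

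Taken gene by gene, Sox18 minus Sox7 averaged 3.19 ± 0.59 in R3, 2.37 ± 0.21 in R2 and 1.83 ± 0.32 in R1 (SD, n = 3; exact permutation p = 0.00357, the smallest these arrangements can give, adjusted p = 0.0143). Sox18 minus Sox17 averaged 3.30 ± 1.43 in R3, 1.37 ± 0.21 in R2 and 1.35 ± 0.51 in R1, and missed the threshold after adjustment (exact permutation p = 0.0393, adjusted p = 0.0524). Sox17 minus Sox7 averaged -0.11 ± 1.43, 1.01 ± 0.13 and 0.48 ± 0.34 in the same order (exact permutation p = 0.329, adjusted p = 0.329). Both differences that hold Sox17 moved with the dim R3 array of mouse 2: without it the span of gate means was 0.53 for Sox17 minus Sox7, against 1.12 with all arrays (exact permutation p = 0.104), and 1.17 for Sox18 minus Sox17, against 1.95.

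Between R3 and R2 the change of Sox18 exceeded the mean change of the other two by 1.37, and by 2.31, 1.34 and 0.47 in mice 2, 4 and 5. Between R3 and R1 it exceeded theirs by 1.65, and by 2.62, 1.36 and 0.97 in the mice. Between R2 and R1 it exceeded theirs by 0.28, with 0.02 in mouse 4. For single pairs of gates the exact permutation test of 3 arrays against 3 cannot go below p = 0.1; it gave 0.1 for R3 against R2, 0.1 for R3 against R1 and 0.3 for R2 against R1.

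When gate labels were permuted only within each mouse (216 arrangements), p was 0.0278, the smallest this exact test can give, for both Sox18 minus Sox7 and Sox18 minus the mean. After adjustment over the 4 differences both were 0.0556, above the threshold that the unpaired form passes. Since the unadjusted p was already at its smallest, a larger effect in these differences could not have lowered it. The adjusted p also depends on the other differences. In the same paired test, p was 0.111 for Sox18 minus Sox17 and 0.472 for Sox17 minus Sox7. In the paired form, then, no difference passed the threshold after adjustment. With the probe sets of a gene averaged, the adjusted exact permutation p was 0.0619 for both.

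**Figure D3:**
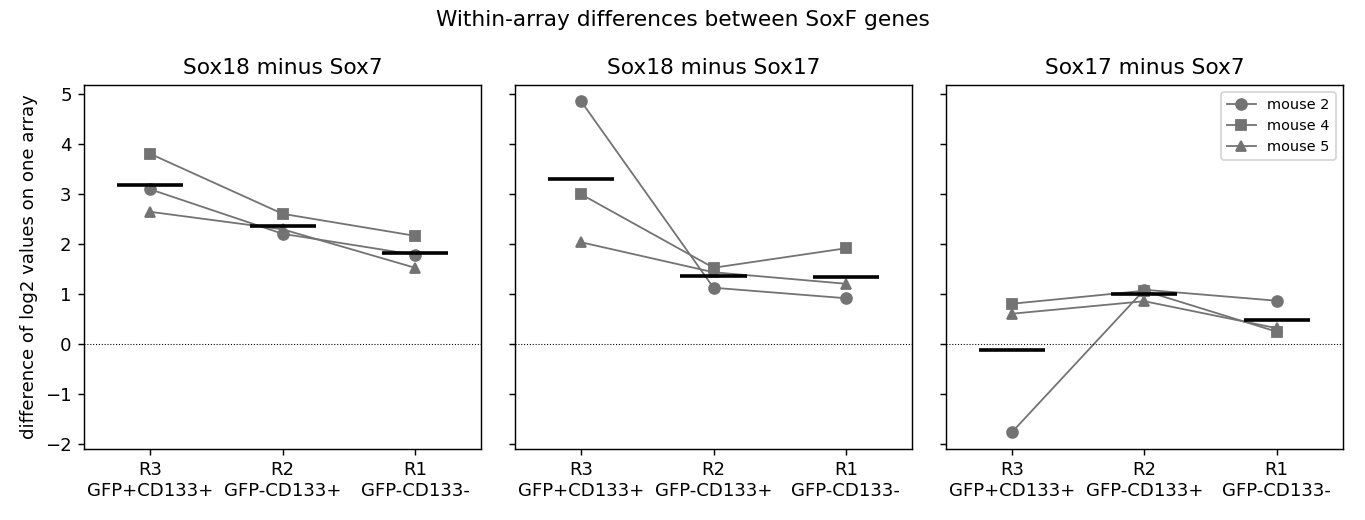
Differences of log2 values between a pair of SoxF genes on the same array (vertical axis) by gate (horizontal axis), with a line per mouse and black bars for the gate means. For Sox18 minus Sox7 the R3 mean is 3.19, against 2.37 in R2 and 1.83 in R1; for Sox17 minus Sox7 the mice differ most in R3, where mouse 2 stands at -1.76.

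The second probe sets were dim. That of Sox7 read 3.99, 4.36 and 3.79 in R3, 4.99, 4.72 and 5.51 in R2, and 4.37, 4.37 and 4.36 in R1. That of Sox17 read 3.85, 4.89 and 3.81 in R3, 5.47, 6.14 and 4.66 in R2, and 3.64, 4.63 and 4.26 in R1. Both were thus highest in R2 on average, as the main probe sets were, with nearly all levels at or under the background guide. When every probe set was tested singly, that of Sox7 fell in R3 against R2 (by -1.02 in log2, adjusted p = 0.0301) and missed the threshold for R2 against R1 (0.70, adjusted p = 0.0696). That of Sox17 missed it in both (-1.24, adjusted p = 0.166, and 1.25, adjusted p = 0.0946). In R3 against R1 the second probe set of Sox17 changed by 0.0063 (limma adjusted p = 0.995), against -1.13 for the main one. The second probe set of Sox7 changed by -0.32 there (limma adjusted p = 0.372). The name of the main Sox17 probe set carries the manufacturer's mark for probes that may also match other transcripts, and its part in the Sox17 values was not tested. Sox18 has no second probe set here.

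Most of the listed endothelial genes moved with the SoxF genes. Of 22 listed endothelial genes 20 fell in R3 against R2 and the other 2, Eng and Clec14a, were not called (median log2 change -2.22, against -0.01 over all genes). Clec14a went the other way, at 7.25 in R3 and 6.14 in R2 (change 1.12, limma adjusted p = 0.114). In R2 against R1, 17 rose and 1 fell (median 1.41, against -0.02 over all genes), where limma called 6.16% of all genes lower. The mean log2 level over the list ran from 5.89 to 6.14 on the R3 arrays, 7.99 to 8.24 on the R2 arrays and 6.64 to 6.87 on the R1 arrays, so the gates did not overlap. The R3 means of Tie1, Adgrl4, She, Emcn, Robo4, Esam and Plvap lay under the background guide, and those of Vwf, Ecscr and Mmrn2 within it. These genes are named after their values were seen. Their falls in R3 are set against a level not above background, which also limits the median change and the R3 list level. The part of endothelial cell content in the SoxF values was not tested.

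Among those that define endothelium, the adhesion gene Pecam1 averaged 6.67 in R3, 9.52 in R2 and 7.74 in R1, and Cdh5, the cadherin of endothelial junctions, 5.82, 8.77 and 7.39. Kdr, the main VEGF receptor gene, averaged 7.48, 9.46 and 7.08, and Emcn (endomucin) 4.63, 8.49 and 6.49. Between R3 and R2 Pecam1 changed by -2.85 (adjusted p = 0.000277) and Emcn by -3.86 (adjusted p = 5.3e-05). In R3 the means of Pecam1, Cdh5 and Kdr lay above the background guide and that of Emcn under it.

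In R3 against R1 the endothelial list split, with 11 genes lower and 3 higher, where limma called 10.8% of all genes lower and 7.9% higher (median change -0.79). Without R1 replicate 2, 7 were lower. The largest fall was that of Cd34 (-3.01, adjusted p = 8.11e-06). Other lower ones included Esam (-2.14, adjusted p = 0.000298), Emcn (-1.86, adjusted p = 0.00142) and Cdh5 (-1.57, adjusted p = 0.00836). The R3 means of Esam and Emcn lay under the background guide. The 3 higher ones, Flt1, Clec14a and Kdr, are named here after their values were seen. Flt1, a VEGF receptor gene, was higher by 1.78 (adjusted p = 0.00042), Clec14a, a C-type lectin gene, by 1.68 (adjusted p = 0.0086) and Kdr by 0.40 (adjusted p = 0.0366). Kdr was not called without R1 replicate 2, R1 replicate 4, R3 replicate 4 or R3 replicate 5 (adjusted p up to 0.122), nor with the mouse as a fixed block (adjusted p = 0.0505).

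Set beside these genes in the same comparison, the Sox18 change was above those of 20 of the 22 endothelial genes, all but Flt1 and Clec14a. The Sox7 change was above 14 of them and the Sox17 change above 7. In R3 against R2, 16 of the 22 endothelial genes had a lower change than Sox18, 7 a lower one than Sox7 and 1 a lower one than Sox17. The 22 include genes whose R3 means lay within or under the background guide, while Sox18 lay above it. These positions are a description and were not tested.

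Genes known from the dermal papilla were listed for comparison. Of 19 measured papilla genes, 18 rose in R3 against R1 and 11 in R2 against R1, and the others were not called (median changes 1.54 and 0.83). Limma called 7.9% and 6.89% of all genes higher in these comparisons. In R3 against R2, 8 rose and 11 were not called (median 0.58), where limma called 1.97% of all genes higher. Only 4 rose without R3 replicate 2, R3 replicate 4 or R2 replicate 4, and 5 without R2 replicate 5. Rspo2, which encodes a Wnt-enhancing secreted protein, changed by 3.36 between R3 and R2 (adjusted p = 0.000224), while Corin, a papilla protease, was at 9.95 in R3, 9.45 in R2 and 5.93 in R1. The Sox18 change between R3 and R2 lay below those of all 19 papilla genes, and its change between R3 and R1 below those of 18.

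**Figure D4:**
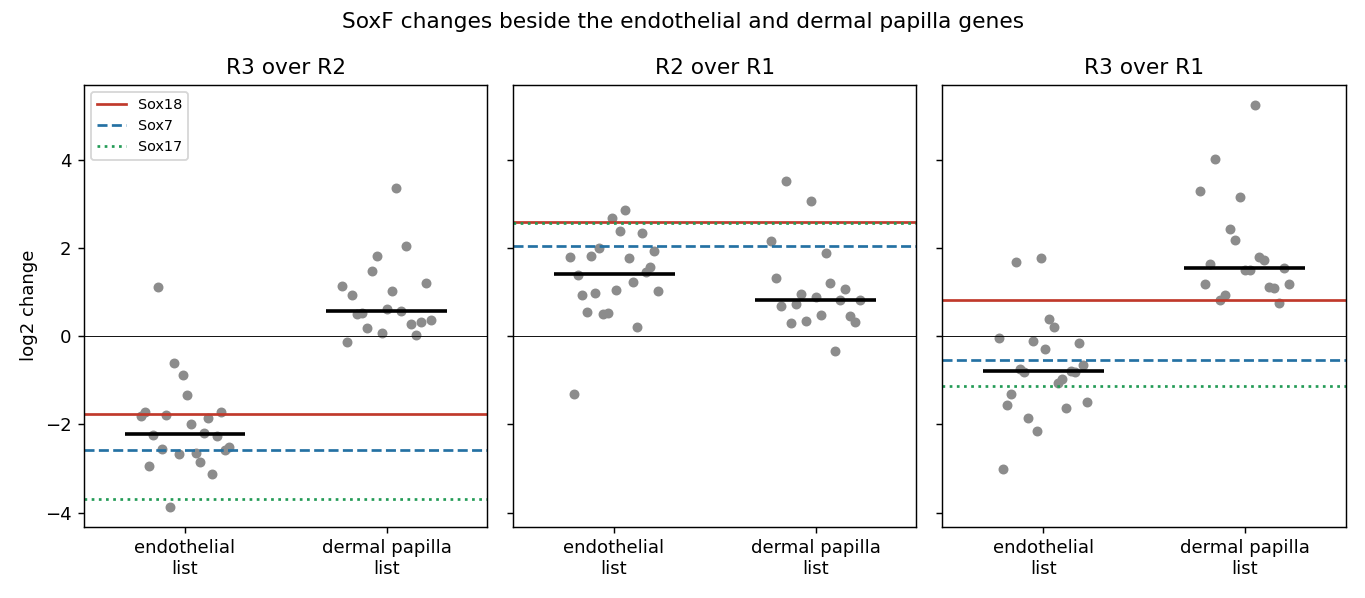
Log2 changes (vertical axis) of the 22 endothelial and 19 dermal papilla genes as grey points, with black bars for the list medians, in the 3 comparisons; horizontal lines mark Sox18, Sox7 and Sox17. For R3 over R1 the Sox18 line (0.82) lies above all but 2 endothelial genes, and the lines of Sox7 (-0.53) and Sox17 (-1.13) run through the endothelial points.

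Genes of vessel subtypes were less uniform than the endothelial list. Of 14 genes known from arteries, 7 fell and 1 rose in R3 against R2, where limma called 3.06% of all genes lower and 1.97% higher. Leaving out the R3 array of mouse 2 or the R2 array of mouse 2 or 4 left 3 falls; leaving out the R3 array of mouse 4 or the R2 array of mouse 5 left 4. In R2 against R1, 9 rose and 1, Gja5, fell (adjusted p = 0.0458), a call that leaving out R1 replicate 2, R1 replicate 4 or any R2 array ended, as did the mouse as a fixed block (adjusted p = 0.0600). Of all genes limma called 6.89% higher and 6.16% lower in R2 against R1. Gja5, a connexin gene, is named after its values were seen. Notch4, an endothelial Notch receptor gene, averaged 5.44 in R3, 7.24 in R2 and 5.01 in R1, with a log2 change of -1.81 between R3 and R2 (adjusted p = 0.00112) against an R3 mean within the background guide. Hey2, a Notch effector gene, was the single riser, at 10.37 in R3 and 9.82 in R2 (adjusted p = 0.019), a call lost when the R3 array of mouse 2 or 4 or the R2 array of mouse 2 or 5 was left out (adjusted p up to 0.0735). In R3 against R1, 5 arterial genes were higher and 3 lower (median 0.18), where limma called 7.9% of all genes higher and 10.8% lower. The Sox18 change there lay above those of 11 of the 14, that of Sox7 above 4 and that of Sox17 above 1. These positions were not tested. In R3 against R1, 1 venous gene was higher and 2 lower, and 2 lymphatic genes were higher and 4 lower. Of 6 genes known from veins, 3 fell and 1 rose in R3 against R2. Aplnr, the apelin receptor gene, changed by -3.48 (adjusted p = 2.68e-05) and Nr2f2, the venous regulator, by 0.88 (adjusted p = 0.00382). Leaving out any single R3 or R2 array left 2 falls. Nrp2 then lost its call (adjusted p from 0.0682 to 0.102), as it did with the mouse as a fixed block (adjusted p = 0.073).

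Of 9 measured lymphatic genes, 3 fell and 2 rose in R3 against R2, where limma called 3.06% of all genes lower and 1.97% higher. Mmrn1 (multimerin) changed by -3.98 (adjusted p = 5.02e-05), the VEGF-C receptor gene Flt4 by -1.84 (adjusted p = 0.0016) and the hyaluronan receptor gene Lyve1 by -1.72 (adjusted p = 0.000277). Flt4 is named after its values were seen, and the R3 mean of Mmrn1 (5.41) lay within the background guide. The 2 risers were Reln, which encodes a secreted matrix protein, by 1.90 and Itga9, an integrin subunit gene, by 1.59. Prox1, the lymphatic regulator downstream of Sox18, averaged 6.81 in R3, 7.35 in R2 and 6.57 in R1; its change was 0.79 between R2 and R1 (adjusted p = 0.0146, and 0.0526 without R1 replicate 2) and -0.55 between R3 and R2 (adjusted p = 0.112, and 0.0490 with the mouse as a fixed block).

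A list of 14 partners and reported targets of SoxF proteins was followed as a group. In R3 against R2, 8 fell and 1 rose, where limma called 3.06% of all genes lower and 1.97% higher. In R2 against R1, 9 rose and 5 were not called, where limma called 6.89% of all genes higher. Medians were -0.73 and 0.86. In R3 against R1, 2 were higher and 3 lower (median -0.01), and 9 were not called, where limma called 7.9% of all genes higher and 10.8% lower. The 2 higher ones, Kdr and Nr2f2, were not called without R1 replicate 4 or R3 replicate 5, and with the mouse as a fixed block 1 was higher, Kdr being lost. This list shares Cldn5, Cdh5, Robo4, Kdr, Tek and Egfl7 with the endothelial list, so its counts are not separate evidence.

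Among the targets, Cldn5, a tight junction gene, averaged 6.23 in R3, 8.47 in R2 and 7.53 in R1, and the guidance receptor gene Robo4 4.82, 7.95 and 5.60. Robo4 changed by -3.12 between R3 and R2 (adjusted p = 0.000223), Cldn5 by -2.24 (adjusted p = 0.000194), Cdh5 by -2.94, the angiopoietin receptor gene Tek by -1.72, Egfl7, which encodes a secreted vessel protein, by -1.79 and Kdr by -1.98. The Notch genes Notch1 and Dll4 changed by -0.79 (adjusted p = 0.0156) and -0.67 (adjusted p = 0.0199). Dll4 was dim throughout, at 5.14 in R3, 5.81 in R2 and 5.09 in R1, and the R3 mean of Robo4 lay under the background guide, so neither log2 change measures a fold well. Notch1 was not called without R2 replicate 4 or R3 replicate 2 (adjusted p up to 0.0651), nor Dll4 when the R3 array of mouse 4 or the R2 array of mouse 2 or 5 was left out (up to 0.0805). Nr2f2 was the gene that rose.

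Other members of this list differed less between the gates. Mef2c, a binding partner of Sox18, averaged 10.02 in R3, 10.30 in R2 and 10.27 in R1. Rbpj, the Notch DNA-binding factor, averaged 8.32, 8.38 and 8.27, and Ctnnb1, which encodes beta-catenin, 12.66, 12.88 and 12.72. Vcam1, an adhesion gene and reported Sox18 target, averaged 10.10, 10.32 and 10.04. Limma called 0 of these 4 genes in any of the 3 comparisons (adjusted p from 0.17 to 0.906), with 1 unadjusted p under 0.05, that of Mef2c between R3 and R2 (0.0352). This does not show that their levels were equal.

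Of 19 other transcription factor genes known from endothelium, 6 fell in R3 against R2 and the rest were not called, where limma called 3.06% of all genes lower. In R2 against R1, 9 rose and 1, Gata2, fell (2 fell without R2 replicate 2), where limma called 6.89% of all genes higher and 6.16% lower. Those that fell in R3 against R2 were Bcl6b (-3.06, adjusted p = 9.12e-06), the ETS factor genes Erg (-2.23, adjusted p = 0.000101) and Fli1 (-1.58, adjusted p = 0.000153), Epas1, which encodes HIF-2 alpha (-1.98, adjusted p = 0.000491), the cofactor gene Lmo2 (-1.92, adjusted p = 0.00397) and the homeobox gene Hhex (-1.95, adjusted p = 0.00805). The other 13 were not called: Ets1, Ets2, Elk3, Tal1, Lyl1, Gata2, Klf2, Klf4, Mef2c, Foxo1, Foxc1, Hlx and Nfatc1, with changes from -1.51 for Foxc1 to 0.23 for Ets1. With the mouse as a fixed block Foxc1 was called (adjusted p = 0.0372).

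In R3 against R1 the same list had 3 genes higher and 6 lower, where limma called 7.9% of all genes higher and 10.8% lower. Ets1, an ETS factor gene also used outside vessels, was higher by 1.21 (adjusted p = 0.00071), the flow-responsive gene Klf2 by 0.98 (adjusted p = 0.00122) and Klf4 by 0.44 (adjusted p = 0.0314, and up to 0.0985 without R1 replicate 2, R1 replicate 4, R3 replicate 4 or R3 replicate 5). The lower ones were Gata2 (-2.27), Foxc1 (-1.86), Hhex (-1.69), Erg (-1.48), Tal1 (-1.48, not called without R3 replicate 2) and Bcl6b (-1.29). The R3 means of Foxc1 (4.08), Tal1 (4.13) and Hhex (4.48) lay under the background guide, so their changes are set against a level not above background. Fli1 and Lmo2 averaged 6.22 and 6.67 in R3 and 6.25 and 6.49 in R1.

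Other cell types in the gates moved too. The mean level over 9 keratinocyte genes ran from 7.23 to 8.09 in R3, 7.45 to 7.56 in R2 and 10.36 to 10.96 in R1. The mean over 7 Schwann and glial genes ran from 8.84 to 9.12 in R3, 5.65 to 6.06 in R2 and 6.76 to 7.08 in R1, that over 10 leukocyte genes from 6.40 to 6.73, 6.39 to 6.64 and 7.68 to 8.12, and that over 7 melanocyte genes from 5.94 to 6.93, 6.52 to 7.24 and 8.01 to 8.46. Over 10 pericyte and smooth muscle genes it ran from 8.32 to 8.45 in R3, 8.79 to 8.84 in R2 and 9.26 to 9.42 in R1. Fibroblast genes (10) ran from 10.96 to 11.10, 11.40 to 11.52 and 12.35 to 12.36, and adipocyte genes (6) from 8.34 to 8.44, 9.11 to 9.81 and 10.06 to 10.32. Of these lists none was highest in R2, where the SoxF genes were highest. Their part in the SoxF changes was not tested.

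The genes whose log2 values followed each SoxF gene most closely over the 9 arrays were taken among 7195 other genes that spanned at least 1 log2 unit. The points are 3 gates of 3 arrays, and Pearson r, which here rests largely on the order of the gates, is given as a description. For Sox17 the closest were Epas1 (r = 0.994), Pecam1 (0.987), the Ras exchange factor gene Rasgrp3 (0.967), Txndc15 (0.966), the endothelial diaphragm gene Plvap (0.965) and Cyyr1 (0.958). For Sox7 they were Lyve1 (0.987), C1qtnf9, a secreted C1q/TNF-related gene (0.982), the interferon-inducible GTPase gene Iigp1 (0.977), the long noncoding RNA Morrbid (0.971), Esm1, which endothelial tip cells secrete (0.965), and Cyyr1 (0.962).

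For Sox18 the closest were Focad (r = 0.971), Pald1 (0.969), the integrin subunit gene Itga8 (0.959), Mllt3 (0.959), the histone deacetylase gene Hdac9 (0.956) and the ubiquitin ligase gene Rnf125 (0.956). Itga8 averaged 10.75 in R3, 11.83 in R2 and 9.85 in R1, and Pald1 8.49, 9.70 and 8.02. The choice by r largely fixes the order of the gates in these genes, so that order is no result about them.

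**Figure D5:**
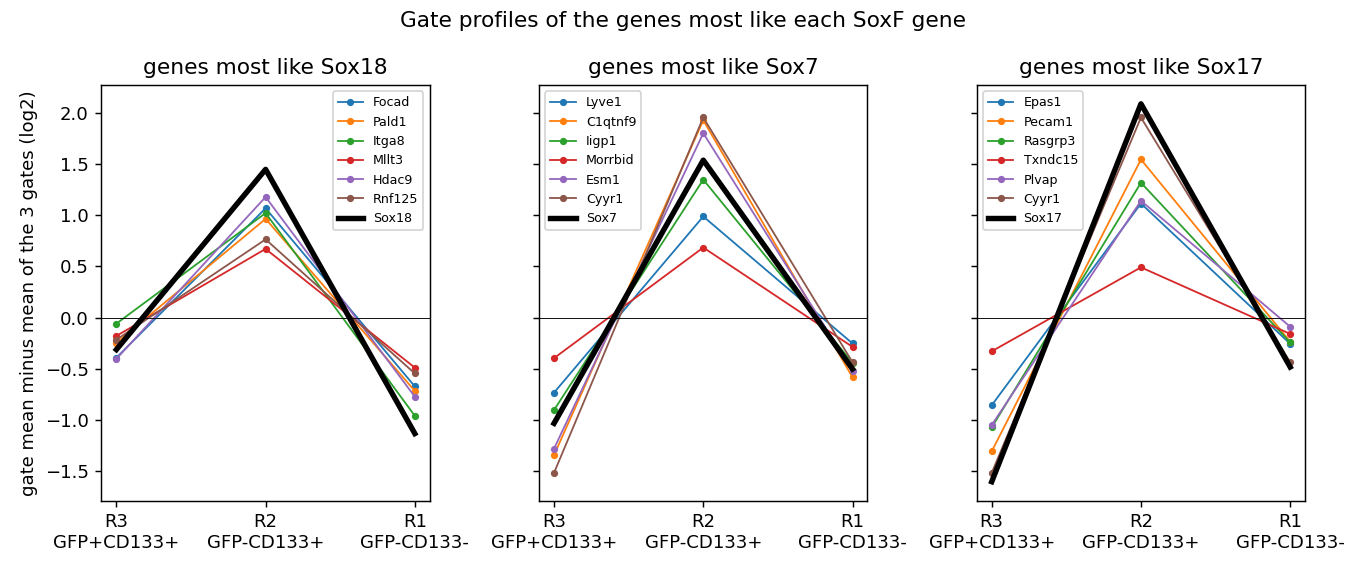
Gate means relative to the mean of the 3 gates (vertical axis, log2) for the 6 genes most like Sox18, Sox7 and Sox17 (thin lines) and for the SoxF gene itself (thick black line), by gate (horizontal axis). The thin lines were chosen to follow the thick one, so their likeness to it is set by the choice; all profiles peak in R2.

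Sox7 and Sox17 correlated with each other at r = 0.88 over the 9 arrays, Sox18 and Sox7 at 0.83, and Sox18 and Sox17 at 0.70. Ordered by r with Sox18, Sox7 came at place 176 and Sox17 at place 612 of the 7195 genes. With the gate means taken out, the deviations of single arrays correlated at -0.65 for Sox7 and Sox17, 0.26 for Sox18 and Sox7, and -0.58 for Sox18 and Sox17.

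The median r with the 22 endothelial genes was 0.89 for Sox7, 0.88 for Sox17 and 0.70 for Sox18. With the 14 arterial genes it was 0.60 for Sox7, 0.57 for Sox17 and 0.69 for Sox18. With the 19 papilla genes it was -0.10 for Sox7, -0.19 for Sox17 and 0.41 for Sox18, where single papilla genes ran from -0.37 to 0.73. With the 9 keratinocyte genes, which are lowest in the papilla gates, it was -0.30, -0.25 and -0.76 in the same order of genes. Sox18 also had the lowest median with fibroblast (-0.02, -0.02 and -0.48), melanocyte (-0.15, -0.11 and -0.61) and leukocyte genes (-0.20, -0.25 and -0.58). With Schwann and glial genes it had the highest (-0.82, -0.83 and -0.50). Over all genes the median was between -0.04 and 0.02.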

How the data were processed

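RNA from 3 sorted populations of 3 mice was measured on 9 single-colour arrays. Per the labels' protocols, a Purelink kit gave the total RNA, which was amplified by WT-Ovation Pico and carried a biotin label. The authors deposited log2 values, 1 per probe set and array; the submitters' processing notes name RMA, a background correction, normalization and probe summary. The RMA version, and whether 1 run covered all arrays, is not given in the sources used here. Amplification and array normalization can compress folds, and the number of arrays limits the precision.

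Of 45101 probe sets, 34945 had 1 gene symbol in the platform annotation and were no controls; 932 with several symbols and 64 control probe sets were left out. The 18193 genes were each represented by the probe set with the highest mean. Gates were compared with limma 3.58.1 in R 4.3.3, with a coefficient per gate over all 9 arrays, without a block or an intensity filter, at a Benjamini-Hochberg adjusted p of 0.05 over all genes. Differences between SoxF genes were tested by exact permutation. The fit was tested on simulated data for R3 against R2 with 200 changed genes. It called 153 genes, 17 of them falsely. It recovered 6% of the 1.5-fold changes, 70% of the 2-fold, 96% of the 4-fold and 100% of the 8-fold ones.

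Arrays of the same number come from the same mouse and are paired; their deviations from gate means correlated at 0.00675 to 0.177 (mean 0.085, against -0.043 between mice). The members, the 14 gene lists and the tests were chosen with earlier results of these data known. Genes named are the 3 members, both gate genes, the 6 genes most like each member by Pearson r (clone-type and predicted symbols skipped), up to 4 members of each list with the lowest p in R3 against R2 and in R2 against R1, and every member of the transcription factor and the partner and target lists. Further endothelial genes are named as examples, and Flt4, Gja5 and Cd34 were named after their values were seen. The alternatives tried were a block for the mouse (fixed or random), each array left out, only the 6 arrays compared, median centring, a further quantile step, probe sets averaged or tested singly, only the brighter genes (mean above that of the median gene), and limma's trend and robust options. Applying them to the counts of the lists other than the endothelial one was decided after seeing the data. Python 3.11.15 was used for the permutations and the figures.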

Additional observations from a re-analysis of the deposited data

How the results depend on the processing

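Over 132 combinations of the 9 SoxF changes with an alternative, 0 reversed direction, 0 lost a call and 11 gained one. This count covers the main probe sets and the averages over the probe sets of a gene. The second probe sets on their own, which missed several of these calls, are not in it. All falls in R3 against R2 and all rises in R2 against R1 stayed called under every alternative run. Sox7 lies under the median gene, so that filter gives it no value.

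The Sox18 change between R3 and R1 passed the threshold with the mouse as a fixed or random replicate block (0.82), after median centring (0.81), quantile normalization again (0.83), with probe sets averaged, among the genes above the median one and with limma's trend and robust options (0.82 each; adjusted p from 0.0273 to 0.0472). It missed the threshold with only the 6 arrays compared (limma adjusted p = 0.102) and with probe sets tested singly (0.0594). The same held without R1 replicate 2 or 5 or R3 replicate 2 or 4 (limma adjusted p up to 0.158). Leaving out single arrays the Sox18 change ranged from 0.65 to 1.08, that of Sox7 from -0.74 to -0.31 and that of Sox17 from -1.50 to -0.51. The cause was not tested.

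The span of gate means was 1.35 for Sox18 minus Sox7 and 1.65 for Sox18 minus the mean of the other two. Both lost the call in the replicate block (1.35 and 1.65), where the unadjusted p was already the smallest that test can give. They also lost it with probe sets averaged (1.25 and 1.31). Leaving out single arrays the spans ran from 1.04 to 1.62 and from 1.28 to 2.10, that of Sox18 minus Sox17 from 1.17 to 2.58, and that of Sox17 minus Sox7 from 0.53 to 1.58. The call of Sox18 minus Sox7 was lost without R1 replicate 2 or 5 or any R2 array, and that of the mean also without R1 replicate 4 (adjusted exact permutation p up to 0.105); Sox18 minus Sox17 was called without R3 replicate 5 (adjusted p = 0.0476).

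Of all genes 915 were called for R3 against R2 (582 to 813 without single arrays), 2375 for R2 against R1 (1554 to 1990) and 3406 for R3 against R1 (2519 to 3009). With all 34945 probe sets tested singly the counts were 3743 for R2 against R1 and 5623 for R3 against R1. Among the 10 endothelial genes above the median gene, 10 fell in R3 against R2, 8 rose in R2 against R1 and 6 fell in R3 against R1; fewer genes were tested there. Without single arrays 19 to 20 endothelial genes fell in R3 against R2, 14 to 16 rose in R2 against R1 and 7 to 11 fell in R3 against R1.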
